A study of Mus musculus with 2 samples.

Results

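The clustered protocadherins are cell-surface adhesion proteins encoded by 3 neighbouring gene clusters, alpha, beta and gamma. Members were taken by symbol, as every gene whose symbol begins with Pcdha, Pcdhb or Pcdhg followed by a number or by a, b or c and a number. This gave 58 of 43346 Ensembl gene rows, with 14 in the alpha cluster, 22 in the beta cluster and 22 in the gamma cluster. The transcript tables listed 88 transcripts of these genes. RNA-seq had been made on 2 libraries by a Smart-seq protocol with spike-in RNA, each from a laser-captured area of about 8000 square microns in layer 5 of the cerebral cortex, entered in the labels as 50 cells. Both areas came from a wild-type male mouse aged 8 months, of strain C57Bl6 in one label and B6NCrl in another, with no treatment named. The libraries carry biological replicate numbers 1 and 2 but the same donor in the labels, so each SD below describes the spread between areas of 1 animal, some of which may be technical. With 1 library per area there was no test, and every difference between the areas is a description of these libraries.

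In mammals each neuron switches on a small set of clustered protocadherins by choosing among promoters, and the chosen proteins pair with identical ones on a touching membrane, which lets a neuron tell its own branches from those of other cells. In the alpha and gamma clusters each member has a long first exon of its own, which encodes the outer part of the protein. This exon is joined to constant exons that all members of the cluster share and that encode the common tail inside the cell. Beta members have an exon of their own and no shared constant exons. The C-type members at the ends of the alpha and gamma clusters (Pcdhac1, Pcdhac2, Pcdhgc3, Pcdhgc4 and Pcdhgc5) are used by many neurons at once, whereas the other members are chosen by chance.

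All members lie on the plus strand of mouse chromosome 18 (mm10). The alpha members span positions 36930184 to 37187661, the beta members 37264938 to 37524479 and the gamma members 37661793 to 37841873. The annotation classed 57 of them as protein-coding and Pcdhgb8 as a polymorphic pseudogene. The libraries held 26059117 expected counts for replicate 1 and 28276843 for replicate 2, of which the members took 0.0365% and 0.0411%. An expected count is an estimated number of reads, and TPM is that number scaled to transcript length and to a fixed sum per library. A captured area holds many cell types, and in such bulk samples fewer cells of a type and less RNA per cell cannot be told apart. Neuron markers (Snap25, Syt1, Rbfox3 and Tubb3) summed to 6742 TPM in replicate 1 and 8022 in replicate 2, and the layer 5 marker Pcp4 alone had 2922 and 3599 TPM. The other layer 5 markers were far lower, with Fezf2 at 18.55 and 24.52 TPM and Etv1 at 18.99 and 23.75 TPM. Bcl11b ran the other way, at 10.99 TPM in replicate 1 and 6.91 in replicate 2. Of the choroid plexus markers, Ttr and Aqp1 were at 0 in both libraries and Folr1 had 1.62 TPM in replicate 1 and 0.05 in replicate 2. Of the serotonergic markers, Slc6a4 was at 0 in both, Tph2 had 0.77 TPM in replicate 1 and 1.14 in replicate 2, and Fev had 0.97 TPM in replicate 1 and was listed at 0 in replicate 2.

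Clustered protocadherin RNA was present in both areas and spread over many members at low levels. The members summed to 103.8 TPM in replicate 1 and 131.8 in replicate 2 (117.8 ± 19.7, SD, n = 2), and the median member had 1.04 and 1.06 TPM. At a level of 1 TPM, 31 members were detected in replicate 1 and 30 in replicate 2, of which 20 were shared. A further 11 members reached 1 TPM in replicate 1 only, 10 in replicate 2 only and 17 in neither. Reaching 1 TPM in 1 area only was common among low genes, at 38.8% of protein-coding genes whose higher area had 1 to under 5 TPM. Detection was thus alike in number and partly different in membership. Pcdhb1 was the only member with 0 counts in both libraries, where 3 counts, the limit that a count of 0 allows, correspond to a CPM (expected counts scaled to library totals) of 0.115 and 0.106.

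**Figure D1:**
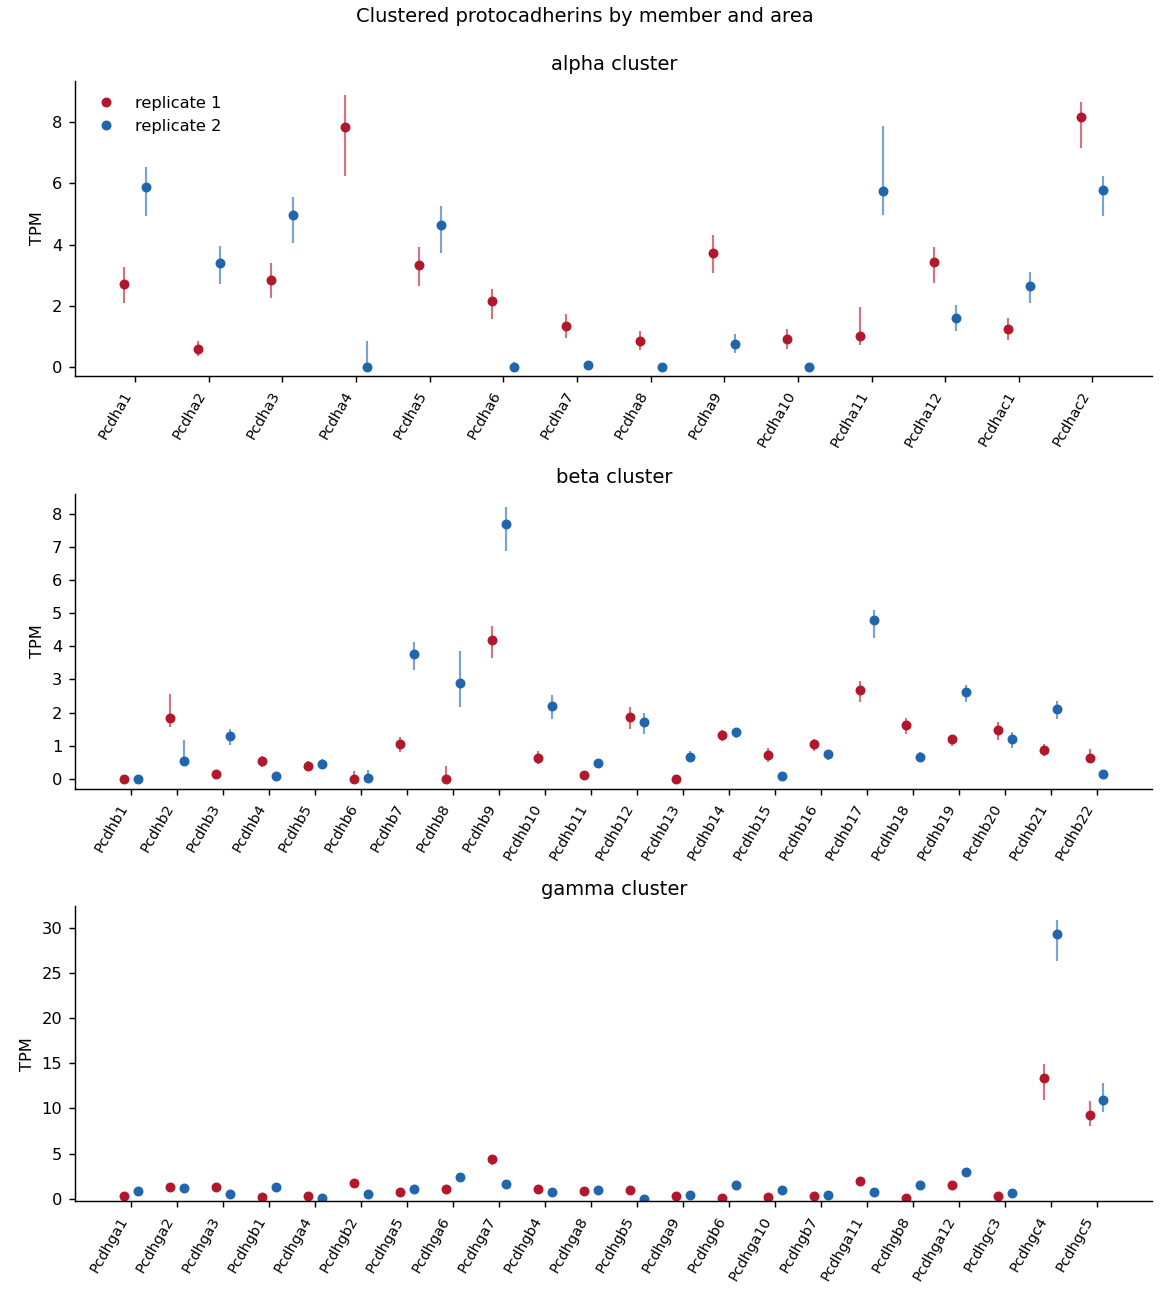
TPM of each member (vertical axis, linear, with its own range in each panel) in its order along the alpha, beta and gamma clusters (horizontal axis), for replicate 1 (red, left) and replicate 2 (blue, right). Points are the deposited TPM and bars the deposited posterior intervals. Most members lie under 5 TPM, and Pcdhgc4 at 13.3 and 29.3 TPM lies above all others in both areas.

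The variable alpha members, which share the alpha tail and differ in their outer domains, summed to 30.7 TPM in replicate 1 and 27.0 in replicate 2. By mean level they were led by Pcdha1, Pcdha5, Pcdha4 and Pcdha3. Pcdha1 had 2.72 TPM in replicate 1 and 5.89 in replicate 2, Pcdha3 had 2.85 and 4.97 TPM, and Pcdha5 had 3.32 and 4.63 TPM. These 3 were found in both areas and were higher in replicate 2, with overlapping posterior intervals for Pcdha5. Pcdha4 was the extreme case, with 7.84 TPM (695.86 expected counts) in replicate 1 and 0 TPM (0 counts) in replicate 2. The 0 is an estimate made after shared reads were divided, and the deposited posterior intervals ran from 6.24 to 8.90 TPM in replicate 1 and up to 0.851 TPM in replicate 2. The nearest bounds of these intervals lay 7.34-fold apart. It was the only member beyond 4-fold on the log2(TPM + 1) scale, 1 of 31 members with a mean of at least 1 TPM (3.23%), where 1.28% of all protein-coding genes with that mean were beyond it.

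Pcdha6, Pcdha8 and Pcdha10 were also listed at 0 counts in replicate 2. They had 2.16, 0.85 and 0.90 TPM in replicate 1, and their intervals in replicate 2 reached 0.179, 0.0905 and 0.101 TPM. The nearest bounds for these members lay 8.75-fold, 6.06-fold and 5.97-fold apart, higher in replicate 1. Pcdha7 had 1.34 TPM in replicate 1 and 0.07 in replicate 2, and Pcdha9 had 3.73 and 0.74 TPM. Every member from Pcdha6 to Pcdha10 in the row along the chromosome was thus higher in replicate 1. In the other direction, Pcdha11 had 1.02 TPM in replicate 1 and 5.74 in replicate 2, and Pcdha2 had 0.58 and 3.39 TPM. The name Pcdha10 is used here for a gene that the M21 annotation labels Pcdha11 a second time and that RefSeq (GRCm38.p6) names Pcdha10 at the same start. Pcdha12, next to the C-type genes, had 3.43 TPM in replicate 1 and 1.61 in replicate 2. Pcdha8 was the lowest alpha member by mean.

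The beta members summed to 22.3 TPM in replicate 1 and 35.5 in replicate 2 (28.9 ± 9.34, SD, n = 2). Pcdhb9 led with 4.20 TPM in replicate 1 and 7.70 in replicate 2, followed by Pcdhb17 with 2.68 and 4.79 TPM. Pcdhb7 had 1.04 TPM in replicate 1 and 3.77 in replicate 2, and Pcdhb19 had 1.19 and 2.62 TPM. The 4 leading members were all higher in replicate 2. Pcdhb8 had 0 counts in replicate 1 and 144 counts (2.89 TPM) in replicate 2. Its posterior interval in replicate 1 reached 0.384 TPM, and the nearest bounds lay 5.63-fold apart. Pcdhb13 had 0 counts in replicate 1 and 54 counts (0.67 TPM) in replicate 2, with nearest bounds 13.1-fold apart. Pcdhb6 had 0 and 2.01 counts, within the limit that a count of 0 allows.

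Some beta members differed little. Pcdhb14 had 1.32 TPM in replicate 1 and 1.41 in replicate 2, Pcdhb12 had 1.87 and 1.70 TPM, and Pcdhb20 had 1.48 and 1.19 TPM, with overlapping posterior intervals in each case. The members at 1 TPM in replicate 1 only were Pcdhb2 (1.85 and 0.53 TPM), Pcdhb16 (1.04 and 0.74 TPM, with overlapping intervals) and Pcdhb18 (1.62 and 0.67 TPM). Those at 1 TPM in replicate 2 only, beside Pcdhb8, were Pcdhb3 (0.14 and 1.28 TPM), Pcdhb10 (0.62 and 2.19 TPM) and Pcdhb21 (0.87 and 2.11 TPM). Differences in both directions thus occurred within the cluster, which as a whole was higher in replicate 2.

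In the gamma cluster the A members summed to 14.1 TPM in replicate 1 and 13.9 in replicate 2, and the B members to 4.39 and 6.09 TPM. The A members, a subfamily grouped by sequence, were led by Pcdhga7 with 4.41 TPM in replicate 1 and 1.61 in replicate 2. Pcdhga12 had 1.47 TPM in replicate 1 and 2.99 in replicate 2, and Pcdhga6 had 1.07 and 2.42 TPM. Their near-equal sums thus hid members that differed in opposite directions. Pcdhga11 had 1.91 TPM in replicate 1 and 0.72 in replicate 2, and Pcdhga3 had 1.29 and 0.49 TPM. Pcdhga5 (0.79 and 1.12 TPM) and Pcdhga8 (0.81 and 1.01 TPM) passed 1 TPM in replicate 2 only, with overlapping intervals. Pcdhga4 was the lowest A member, at 0.30 and 0.13 TPM.

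No B member reached 1 TPM in both areas. Pcdhgb2 had 1.73 TPM in replicate 1 and 0.55 in replicate 2, Pcdhgb4 had 1.06 and 0.71 TPM, and Pcdhgb1 had 0.24 and 1.34 TPM. The posterior intervals of Pcdhgb4 overlapped. Pcdhgb6 and Pcdhgb8 each had 1.51 TPM in replicate 2, against 0.05 and 0.04 TPM in replicate 1. In counts, Pcdhgb6 had 5.05 in replicate 1 and 154.5 in replicate 2, and the nearest bounds of its posterior intervals lay 9.12-fold apart. Pcdhgb8 had 3.44 and 151.8 counts, with bounds 10.8-fold apart in the same direction. Pcdhgb5 ran the other way, with 92.95 counts in replicate 1 and 2.00 in replicate 2, and bounds 8.41-fold apart. Pcdhgb7 was the lowest B member, at 0.30 and 0.45 TPM.

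The C-type members took 31.1% of all clustered protocadherin TPM in replicate 1 and 37.4% in replicate 2. Pcdhac2, which in mice is needed for the even spread of serotonergic axons, had 8.17 TPM in replicate 1 and 5.77 in replicate 2. Pcdhac1 had 1.24 and 2.65 TPM. Pcdhac2 was thus higher in replicate 1 and Pcdhac1 in replicate 2, with posterior intervals apart for both. Pcdhgc5 had 9.28 TPM in replicate 1 and 10.9 in replicate 2, with overlapping intervals of 8.03 to 10.8 and 9.58 to 12.8 TPM. Pcdhgc3, known for promoting the branching of cortical dendrites in mice, had 0.33 and 0.58 TPM and was under 1 TPM in both areas. Pcdhgc4, required for the survival of many neurons in mice, was the highest member at gene level, with 13.3 TPM (653.8 counts) in replicate 1 and 29.3 TPM (1449 counts) in replicate 2.

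The transcript tables placed most of the Pcdhgc4 value in a short transcript. Transcript ENSMUST00000195239.1 is annotated with 2272 bases, of which 153 lie outside the gamma constant exons and 2119 within them. It held 11.9 TPM in replicate 1 and 28.1 in replicate 2, which was 89.6% and 95.7% of the gene. The long transcript that carries the full first exon of Pcdhgc4, ENSMUST00000066140.8 with 5024 bases, held 0.16 and 0.20 TPM. A retained-intron transcript, ENSMUST00000193222.1, held the remaining 1.22 and 1.05 TPM. The gene-level rank of Pcdhgc4 therefore rested on reads assigned to a transcript that is 93.3% shared sequence. Which gamma first exon those reads were joined to was not tested.

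The markers Pcdhgc5 and Pcdhac2 rested on their long transcripts. For Pcdhgc5, ENSMUST00000055935.6, with 2622 bases outside the constant exons, held 6.65 TPM in replicate 1 and 7.98 in replicate 2, or 71.7% and 73.2% of the gene. A transcript of 593 bases with 147 of its own, ENSMUST00000193941.1, held 2.31 and 2.16 TPM. Pcdhac2 had 1 annotated transcript, with 3028 bases of its own beside the 2860 bases of the alpha constant exons.

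**Figure D2:**
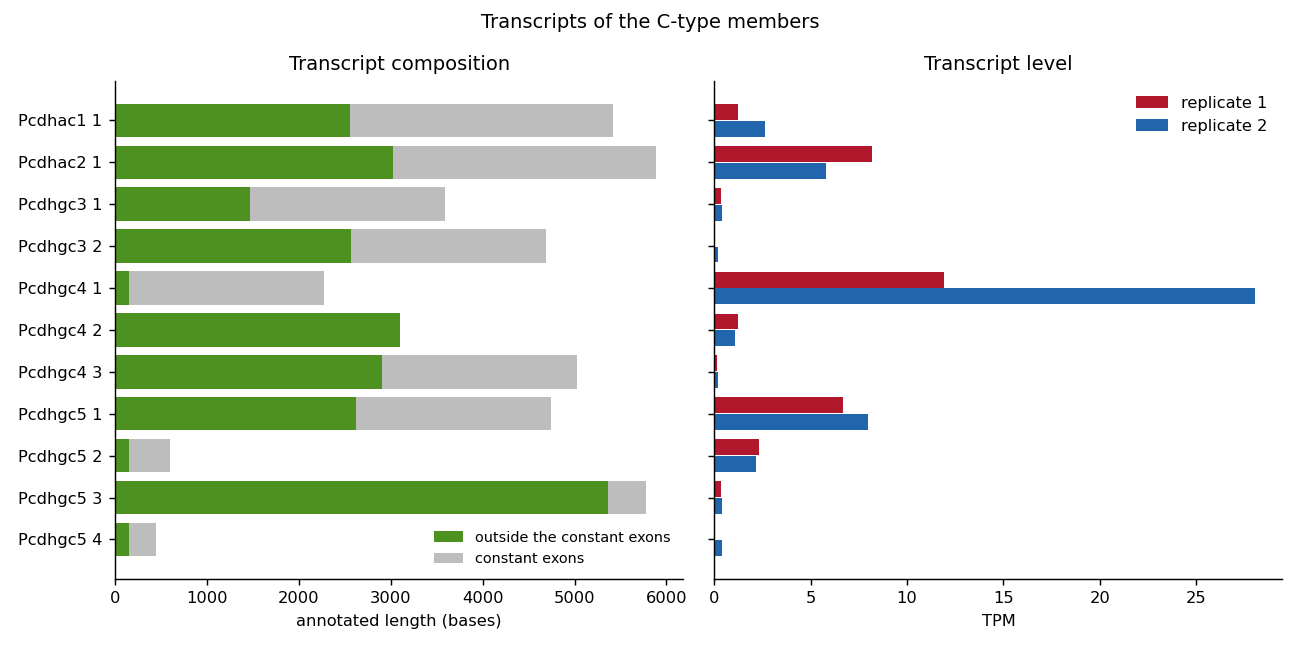
Annotated length of each C-type transcript above 0 TPM (left, bases, split into bases outside the constant exons in green and in the constant exons in grey) and its TPM (right, replicate 1 in red above replicate 2 in blue); numbers rank the transcripts of a gene by mean TPM. The first Pcdhgc4 transcript, with 153 bases of its own, holds 11.9 and 28.1 TPM, and the long one, ranked last for that gene, holds 0.16 and 0.20 TPM.

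In an alternative chosen after seeing the data, transcripts with fewer than 500 bases outside the constant exons were left out, 5 of 88 in all. They held 34.4% of gamma TPM in replicate 1 and 50.4% in replicate 2, against 0.971% and 0% of alpha TPM. Without them the gamma cluster summed to 27.1 TPM in replicate 1 and 30.1 in replicate 2, where with them it summed to 41.4 and 60.8 TPM. The alpha cluster kept 39.8 TPM in replicate 1 and 35.5 in replicate 2, and its sum over all transcripts was 40.1 and 35.5 TPM. The C-type share became 20.3% in replicate 1 and 18.6% in replicate 2. The difference between the areas in gamma and C-type sums therefore lay mostly in those short transcripts.

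**Figure D3:**
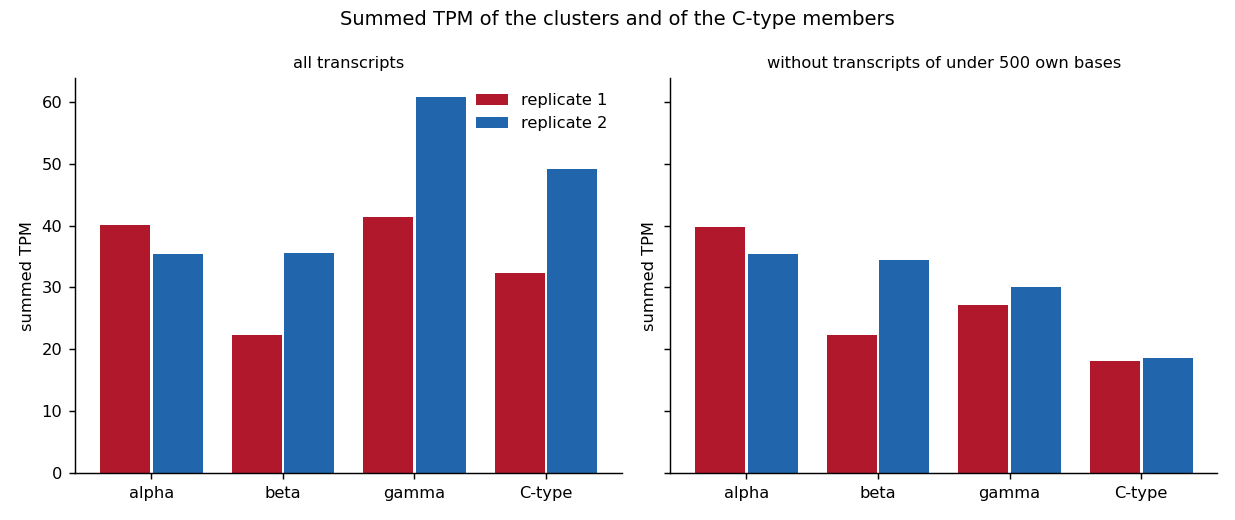
Summed TPM (vertical axis, from 0) of the alpha, beta and gamma clusters and of the 5 C-type members, which are also counted in alpha and gamma, for replicate 1 (red, left bar) and replicate 2 (blue, right bar). The left panel uses all transcripts and the right panel leaves out those with under 500 bases of their own, where the gamma bars are 27.1 and 30.1 TPM in place of 41.4 and 60.8 TPM.

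At 1 TPM, 21 of the 88 transcripts were present in both areas, 11 in replicate 1 only and 12 in replicate 2 only, while 14 had 0 counts in both. Of the 44 at 1 TPM in either area, 23 (52.3%) thus reached it in 1 area only, where 31.8% of 27011 such transcripts of protein-coding genes did. Among those whose higher area had 1 to under 5 TPM the share was 21 of 37 (56.8%), near the 57.7% of all such transcripts. Transcripts with the constant exons held 98.5% of alpha TPM in replicate 1 and 100% in replicate 2, and 87.5% and 90.7% of gamma TPM. Several gamma members were seen mainly through transcripts annotated without the constant exons. Pcdhga12 had 1.27 of its 1.47 TPM in replicate 1 and all of its 2.99 TPM in replicate 2 in a retained-intron transcript. The 0.97 and 0.02 TPM of Pcdhgb5 and the 1.06 and 0.71 TPM of Pcdhgb4 lay wholly in such transcripts. In the alpha cluster, Pcdha4 in replicate 1 was mostly ENSMUST00000192295.1, at 7.24 TPM, with 1697 bases of its own. The full-length Pcdha11 transcript, ENSMUST00000115657.5, had 0 TPM in replicate 1 and 5.74 in replicate 2, so that the 1.02 TPM of the gene in replicate 1 came from other transcripts. Beside Pcdhgc4 and Pcdhgc5, Pcdhb8 was the member with more than 1 transcript at 1 TPM in a library, at 1.89 and 1.01 TPM in replicate 2 and 0 TPM for each in replicate 1.

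How far reads could be assigned to 1 member differed between clusters. Of the distinct 50-base words in a member's transcripts, a median of 4.26% was shared with another member in the beta cluster (0 to 12.0%), against 59.6% in alpha (43.7 to 63.9%) and 44.4% in gamma (26.9 to 65.3%). Expected counts of beta members above 0 were whole numbers, within 0.005, in 11 of 18 cases in replicate 1 and 14 of 21 in replicate 2. In the alpha cluster 0 of 14 and 0 of 10 were whole, and in gamma 0 of 22 and 2 of 22. Alpha and gamma values for a member are thus estimates that divide shared reads, and beta values are closer to direct counts. Pcdhb21 and Pcdhb22 overlap in position and their values cannot be fully separated.

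How evenly each cluster was used was described by its effective number, the number of equally abundant members that would give the same entropy of shares. It was 10.5 of 14 in replicate 1 and 8.02 in replicate 2 for alpha, 13.7 of 22 and 12.7 for beta, and 9.24 of 22 and 7.09 for gamma. The gamma number became 12.6 in replicate 1 and 13.8 in replicate 2 without the short transcripts. With all transcripts counted, beta thus had the highest number in both areas. For its size, alpha with 14 members was above beta in replicate 1 and slightly below it in replicate 2. Without the short transcripts beta had 13.7 in replicate 1 and 12.7 in replicate 2, so that gamma was below it in replicate 1 and above it in replicate 2. Spearman's rho between the areas across members was 0.20 for alpha (n = 14), 0.51 for beta (n = 22) and 0.28 for gamma (n = 22). Along the chromosome, order and TPM of the members outside the C-type had rho of −0.01 in replicate 1 and −0.28 in replicate 2 for alpha (12 members). The same values were 0.39 and 0.26 for beta (22 members) and −0.11 and 0.14 for gamma (19 members). These are descriptions over genes of the same libraries, which share reads in the alpha and gamma clusters.

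**Figure D4:**
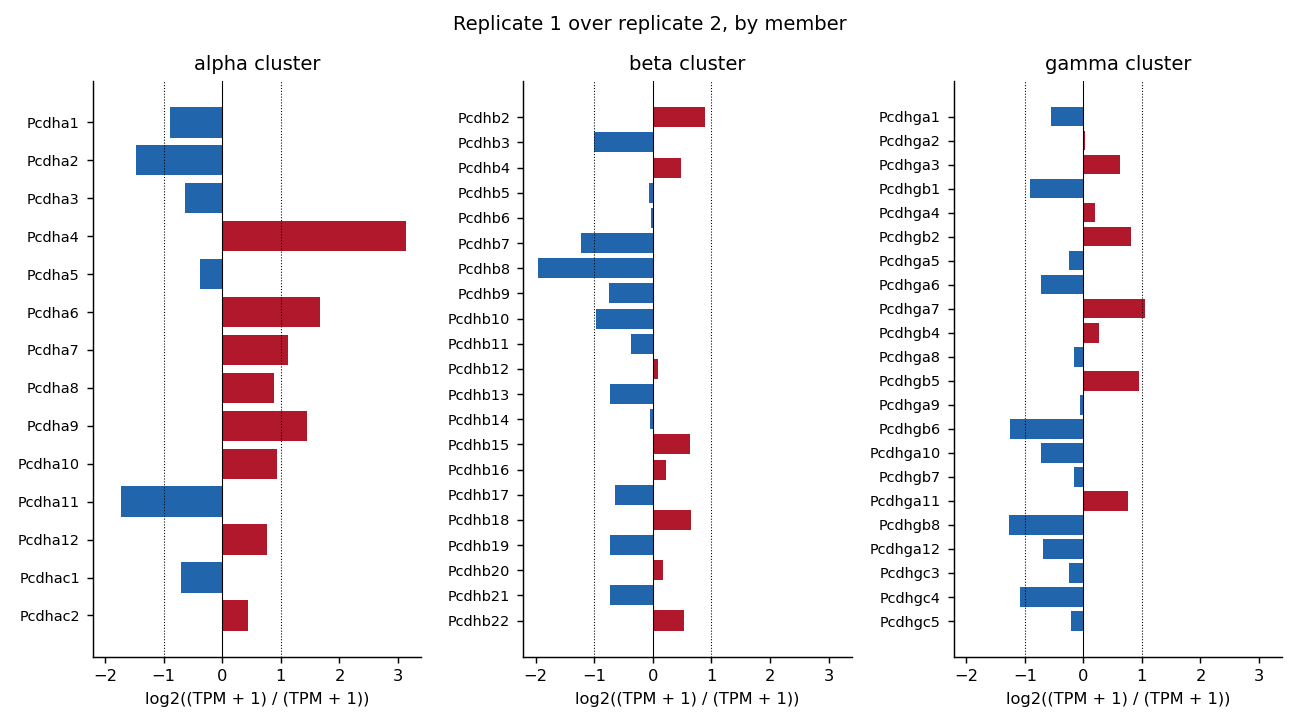
Difference between areas for each member with a value above 0, as log2 of (TPM + 1) in replicate 1 over (TPM + 1) in replicate 2 (horizontal axis), in cluster order from top to bottom. Red bars are higher in replicate 1, blue bars higher in replicate 2, and dotted lines mark 2-fold. Pcdha4 at 3.14 and Pcdhb8 at −1.96 are the ends of the range.

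The areas were compared on the scale of log2(TPM + 1), which understates the differences of low genes. Of the 58 members, 31 had a mean of at least 1 TPM, 11 of them with 1 area under that level, which therefore had to differ. The same minimum was applied to the background genes. Of the 31, 9 were beyond 2-fold (29.0%), where 10.3% of 11841 protein-coding genes with that mean were. Pcdha4, Pcdha6, Pcdha9 and Pcdhga7 were higher in replicate 1, and Pcdha2, Pcdha11, Pcdhb7, Pcdhb8 and Pcdhgc4 were higher in replicate 2. The Pcdhgc4 difference lay in its short transcript, without which the gene had 1.38 TPM in replicate 1 and 1.25 in replicate 2. Low genes vary more, so the members were also set beside genes of like level. At a mean of 1 to under 5 TPM, 8 of 27 members (29.6%) were beyond 2-fold, where 21.2% of 3330 protein-coding genes were. The share of members was thus above that of all genes and nearer to that of genes at their own level.

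Several other rules gave wider gaps. Further alternatives put beyond 2-fold 9 of 31 members on posterior mean TPM and 7 of 30 without the short transcripts. The counts were 13 of 39 over nuclear genes, 13 of 57 with no minimum and 1 of 4 at a mean of at least 5 TPM. No background share was set beside these, so no gap can be read from them. With a pseudocount of 0.1, 20 of 31 members (64.5%) were beyond 2-fold, against 15.2% of all protein-coding genes with that mean. In the range of 1 to under 5 TPM this was 19 of 27 members (70.4%) against 35% of genes. On CPM, which ignores transcript length, 28 of 52 members (53.8%) were beyond 2-fold, against 13.7% of genes with a mean of at least 1. Of members whose higher area had 1 to under 5 TPM, 20 of 34 (58.8%) reached 1 TPM in that area only, against 38.8% of genes. The deposited posterior intervals of the areas were apart for 22 of 27 members (81.5%) at a mean of 1 to under 5 TPM, against 53.5% of genes. In that range 3 of 27 members (11.1%), Pcdha4, Pcdha6 and Pcdhb8, had 0 counts in 1 area, against 2.43% of genes. These 3 passed the minimum mean only through the area where they were high. The gap between members and background depended on the rule, and these shares describe the libraries and are no test.

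**Figure D5:**
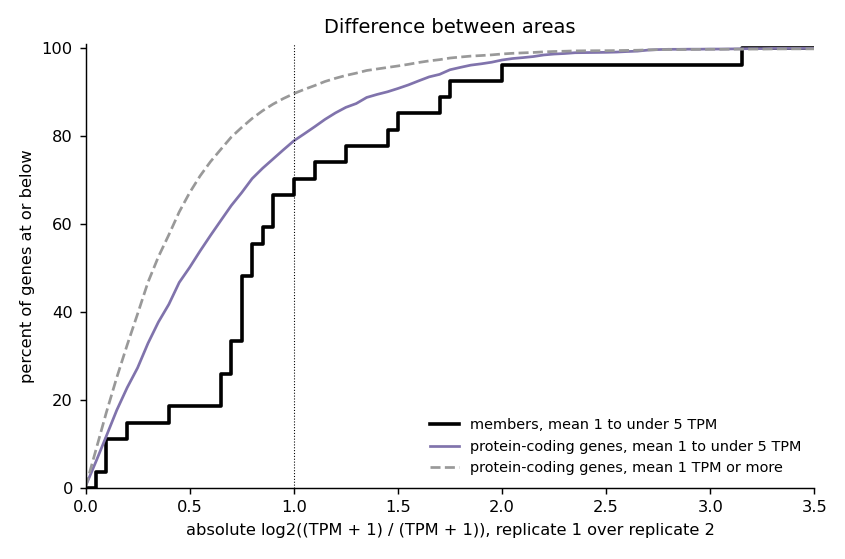
Percent of genes (vertical axis) at or below each absolute log2 ratio of (TPM + 1) between replicate 1 and replicate 2 (horizontal axis), for 27 members at a mean of 1 to under 5 TPM (black), 3330 protein-coding genes in that range (purple) and 11841 protein-coding genes at 1 TPM or more (dashed grey). The dotted line marks 2-fold, and the members' curve lies below that of genes of like level over most of the range, with medians of 0.76 and 0.50.

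Over the 31 members the median absolute log2 ratio was 0.74, where it was 0.33 over all protein-coding genes with that mean. For the 27 members at 1 to under 5 TPM it was 0.76, beside 0.50 for genes of that range. The signed median was −0.38 for the 31 members, that is, towards higher values in replicate 2, and −0.05 for all genes. It was −0.14 without the short transcripts and −0.15 with no minimum TPM, so its size depended on those choices. By cluster it was −0.38 for alpha, −0.69 for beta and −0.09 for gamma. In alpha the sign depended on the measure, since 8 of the 13 members with intervals apart, and the summed TPM, were higher in replicate 1. Differences thus ran in both directions, and the part that the division of shared reads had in them was not tested.

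Markers of several other cell types moved between the same libraries, and their part in the members' differences was not tested. The 4 astrocyte markers differed little, with sums of 97.3 TPM in replicate 1 and 95.3 in replicate 2 and 0 beyond 2-fold. The 4 microglia markers were all higher in replicate 1, with summed levels of 118 TPM and 27.4 TPM in replicate 2, and 3 of 4 oligodendrocyte markers were beyond 2-fold in the other direction, with sums of 435 and 710 TPM. The 4 endothelial and mural markers were all higher in replicate 1, 2 of them beyond 2-fold, with sums of 36.0 and 12.4 TPM. The 6 GABAergic markers summed to 1578 TPM in replicate 1 and 3107 in replicate 2, a sum carried by Sst with 194 and 2859 TPM. Gad1 (438 and 65.2 TPM), Pvalb (918 and 145 TPM) and Slc32a1 (4.43 and 3.40 TPM) were higher in replicate 1. Gad2 (23.9 and 31.8 TPM) and Vip (0.03 and 1.95 TPM) were, like Sst, higher in replicate 2. The list thus had no common direction. Over the 5 markers with a mean of at least 1 TPM, which leaves out Vip, the median log2 ratio was 0.30, the value of Slc32a1. The areas thus differed in markers of interneuron types. The 4 excitatory markers stayed within 2-fold, with sums of 1082 and 1357 TPM. All 4 were higher in replicate 2, and Slc17a7 was close to 2-fold, at 56.2 and 112 TPM.

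The genes of the wider protocadherin pathway were given for context. Among 12 non-clustered protocadherins, which are separate genes with promoters of their own, 9 reached 1 TPM in both areas, and their sum was 141 TPM in replicate 1 and 165 in replicate 2. They were led by Pcdh7 (53.7 and 52.5 TPM), Pcdh10 (30.9 and 39.4 TPM) and Pcdh9 (24.5 and 44.6 TPM). Each was above every clustered member in both areas. Of the 11 with a mean of at least 1 TPM, 4 were beyond 2-fold (36.4%), where 10.3% of protein-coding genes with that mean were. Pcdh17 (9.19 and 3.73 TPM) and Pcdh8 (2.89 and 0.73 TPM) were higher in replicate 1. Pcdh11x (2.24 and 8.34 TPM) and Pcdh15 (1.08 and 3.72 TPM) were higher in replicate 2. These 4 genes thus differed in both directions.

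Of 19 genes for promoter choice, looping and methylation, 18 reached 1 TPM in both areas. They were led by Ctcf, which binds the clustered promoters and their enhancers, with 29.3 TPM in replicate 1 and 40.4 in replicate 2. The cohesin subunit Smc1a had 32.4 and 22.9 TPM, and Wapl, which releases cohesin from DNA, had 16.0 and 15.2 TPM. Dnmt3b, which methylates the promoters in the early mouse embryo, was under 1 TPM in both, at 0.18 and 0.52 TPM. Of the 18, Pds5a, a cohesin regulator, was beyond 2-fold higher in replicate 1 (4.83 and 1.47 TPM), and Tet1, a DNA demethylation enzyme, was beyond 2-fold lower (3.21 and 8.10 TPM). These 2 of 18 (11.1%) were near the 10.3% of all protein-coding genes. In expected counts Tet1 differed less than in TPM, with 276 in replicate 1 and 409 in replicate 2. The median absolute log2 ratio of this list was 0.24. Of 20 binding and signalling partners, 19 reached 1 TPM in both areas and 0 of 20 were beyond 2-fold, beside that same 10.3%, with a median absolute log2 ratio of 0.22. Among them Cyfip2, a subunit of the actin-regulating WAVE complex, had 115 TPM in replicate 1 and 135 in replicate 2, and Pdcd10 had 110 and 128 TPM.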

How the data were processed

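Expected counts, TPM and a posterior mean TPM per gene and transcript were deposited by the authors. The bounds of its interval, a signal on the TPM scale, were deposited beside it. The deposited transcript tables also gave each transcript's percent of its gene. The build was mm10 and the annotation M4, per the deposited text files. The program, the aligner, the strand setting and the level of the intervals are not given in the sources used here, so reads of antisense genes cannot be told apart with certainty.

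Symbols, exons and coordinates came from GENCODE M21, which gave the same length for all 88 member transcripts. Constant exons were the bases that lie in exons of at least 50% of a cluster's members. Members and gene lists were chosen with earlier results of these data known. Named members were the C-type members, the 4 highest and the lowest by mean TPM of each set, those with 0 counts or at 1 TPM in 1 library only, and those beyond 4-fold. A few others are named for contrast.

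Of lists the 3 highest and those beyond 2-fold were named, except for a gene that is not reported here, and other members of the marker lists were chosen after their values were seen. The low range of 1 to under 5 TPM was also chosen after seeing the data. Fold rules used log2(TPM + 1), a pseudocount of 1. Only the alternative with a pseudocount of 0.1 was tested on simulated data, which held counting error alone. The floor of 3 counts covers counting error only, since reads carry no molecular identifiers. Folds of members at or near 0 were taken between the nearest bounds of the deposited intervals. The libraries were not copies of each other, with a chi-square of 69.5 per degree of freedom on 14137 genes whose counts summed to 50 or more. No p-value was computed. Alternatives were other detection levels, pseudocounts and minimums, CPM, TPM over nuclear genes, posterior mean TPM and leaving out each library. Tables were handled in Python 3.11.15 with pandas 2.3.3 and numpy 2.4.6, rank correlations came from scipy 1.17.1, and plots from matplotlib 3.10.9.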

Additional observations from a re-analysis of the deposited data

How the results depend on the processing

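Of the values recomputed under alternatives, 19 moved. The other 50 stayed within 1 SD of the areas or, for counts of members and ratios between areas, within 1.5 times the reported value. Only the median log2 ratio of members could change sign, and it stayed negative under each alternative. For sums, shares and effective numbers, leaving out 1 library could not count as moved. With 2 libraries, each lies within 1 SD of their mean, so those cases say nothing about stability. The 20 members at 1 TPM in both areas became 32 at 0.5 TPM, 8 at 2 TPM and 44 at 10 or more expected counts, and with 1 library left out 30 to 31 members reached 1 TPM in the other. Over nuclear genes alone the mean alpha sum was 48.8 TPM and the gamma sum 66.1 TPM, by construction of the smaller total. Without transcripts of few own bases, chosen after seeing the data, the gamma sum was 28.6 TPM, the C-type share 19.4% and the gamma effective number 13.2. With CPM the C-type share was 28.3% and the gamma effective number 10.7. With members at 1 TPM or more alone the effective number was 9.11 for beta and 5.56 for gamma. The 9 members beyond 2-fold became 20 with a pseudocount of 0.1, 28 with CPM and 1 at a mean of at least 5 TPM. Their median log2 ratio of −0.38 became −0.25 with CPM, −0.15 with no minimum and −0.14 without transcripts of few own bases. Where no reason is given the cause was not tested. No paired analysis was possible because there was 1 group of 2 libraries. Depth limits the members at 0 counts, and the division of shared reads limits alpha and gamma members more than beta members.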

Other observations

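The row Pcdha6 to Pcdha10, picked after its values were seen, held 8.98 TPM in replicate 1 and 0.81 TPM in replicate 2, or 22.4% and 2.28% of alpha TPM. These members share the alpha constant exons, so their values are not independent.

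Other genes are annotated within the clusters. The readthrough genes Gm42416, Gm37013 and Gm37388, which are annotated from the alpha to the gamma cluster, had 0 counts in both libraries. Among genes on the minus strand, Gm26672 in the gamma cluster had 119 expected counts in replicate 1 and 17.3 in replicate 2. Gm10544 in the alpha cluster had 46.9 and 7 counts, Gm37165 in gamma had 21.5 and 0, and Gm37446 in beta had 12.7 and 0. On the plus strand at the 3′ end of the gamma cluster, Gm38182 had 2.8 counts in replicate 1, against 25.5 in replicate 2. The minus-strand genes named here were thus higher in replicate 1, at counts far below those of the leading members.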
